A study of Mus musculus with 6 samples.

Results

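Prostaglandin E2 (PGE2) is made and cleared by a short chain of enzymes, and 8 genes of that chain were followed through chemotherapy of colorectal cancer organoids, out of 24190 genes in the deposited count table. They were chosen by role, with earlier results of these data known, and found by matching the table's Ensembl identifiers to GENCODE mouse symbols. The 8 were the phospholipase Pla2g4a, the cyclooxygenases Ptgs1 and Ptgs2, the PGE synthases Ptges, Ptges2 and Ptges3, the breakdown enzyme Hpgd and the PGE2 receptor Ptger4. RNA was sequenced from MTO54, a parental mouse tumor organoid (MTO) line of AKP genotype, which the study's methods trace to primary tumors of genetically engineered mice. Dissociated single cells were seeded in basement membrane extract and grown for 2 days in complete stem cell medium, which was then exchanged for another 2 days. The labels and methods give that time, whereas a legend of the study gives a longer treatment for a comparison of this kind. The 3 control libraries came from organoids given complete stem cell medium alone, and the 3 Folfiri libraries from organoids given the same medium with SN38 at 100 nM and 5FU at 50 μg/μl, a unit copied from the labels that may be a slip for a much lower dose. 5FU (5-fluorouracil) blocks thymidylate synthesis and SN38, the active form of irinotecan, poisons topoisomerase I. All 6 libraries come from 1 line. A legend of the study calls such samples biological replicates, but the labels do not say whether they were separate cultures, so p-values measure the spread between these libraries, which may be technical.

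Prostaglandin synthesis starts when a phospholipase A2 frees arachidonic acid from membrane phospholipids. A cyclooxygenase converts it to the unstable prostaglandin H2, and terminal synthases turn that into PGE2 or another prostanoid. PGE2 acts on G protein-coupled receptors and is inactivated after uptake by 15-hydroxyprostaglandin dehydrogenase, the product of Hpgd. In the intestine PGE2 is known for its part in epithelial repair and in colorectal tumor growth, and loss of HPGD together with high PTGS2 is a familiar feature of human colorectal tumors.

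The promoters of Ptgs2, Ptgs1, Hpgd and Ptges are printed because the comparisons of synthesis steps with each other and with breakdown rest on these 4 genes: both cyclooxygenases and the breakdown enzyme were higher after Folfiri, and the inducible PGE synthase lower. Each sequence runs 5′ to 3′ on the gene's strand over 250 bases before and 50 bases after the RefSeq transcription start (build GRCm38.p6). The windows are chr1:150099781-150100080 on the plus strand for Ptgs2, chr2:36230176-36230475 on the plus strand for Ptgs1, chr8:56294302-56294601 on the plus strand for Hpgd and chr2:30903248-30903547 on the minus strand for Ptges. The Ptges window lies inside the GENCODE span of that gene (30889471 to 30929863), so its RefSeq start is not the outermost annotated start. Capitals mark matches to the 6 motifs searched on both strands, described after the sequences.
Ptgs2: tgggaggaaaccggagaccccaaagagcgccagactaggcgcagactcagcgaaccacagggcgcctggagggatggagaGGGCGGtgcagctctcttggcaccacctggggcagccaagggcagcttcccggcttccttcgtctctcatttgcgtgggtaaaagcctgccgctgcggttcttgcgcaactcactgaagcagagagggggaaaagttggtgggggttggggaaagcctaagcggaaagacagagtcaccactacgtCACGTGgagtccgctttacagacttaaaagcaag
Ptgs1: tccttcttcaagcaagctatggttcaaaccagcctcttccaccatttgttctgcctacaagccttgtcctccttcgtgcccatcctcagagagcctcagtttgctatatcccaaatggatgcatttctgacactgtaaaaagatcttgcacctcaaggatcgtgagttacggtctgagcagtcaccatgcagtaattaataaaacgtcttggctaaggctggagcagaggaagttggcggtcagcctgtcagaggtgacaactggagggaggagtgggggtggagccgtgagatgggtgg
Hpgd: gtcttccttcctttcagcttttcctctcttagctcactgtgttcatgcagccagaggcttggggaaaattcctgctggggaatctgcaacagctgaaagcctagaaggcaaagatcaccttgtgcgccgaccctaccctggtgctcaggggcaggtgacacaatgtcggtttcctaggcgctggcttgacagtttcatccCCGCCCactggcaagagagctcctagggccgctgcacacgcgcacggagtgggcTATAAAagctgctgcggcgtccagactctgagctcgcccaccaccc
Ptges: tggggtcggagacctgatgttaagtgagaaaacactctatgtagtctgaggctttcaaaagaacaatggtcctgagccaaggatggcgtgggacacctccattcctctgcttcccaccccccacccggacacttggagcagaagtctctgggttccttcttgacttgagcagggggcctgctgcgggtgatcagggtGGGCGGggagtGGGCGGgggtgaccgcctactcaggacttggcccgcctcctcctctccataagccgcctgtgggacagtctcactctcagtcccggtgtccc

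The motifs were the TATA box (TATAAA), the cAMP response element (TGACGTCA), the AP-1 site (TGANTCA), the E-box (CACGTG), the CCAAT box (CCAAT) and the GC box (GGGCGG). The Ptgs2 window held the E-box at position 17 after the start and the GC box at position -170, and neither the TATA box nor the cAMP response element in these exact letters. An E-box of these letters was present in 7.15% and a GC box in 35.7% of the 32851 RefSeq promoter windows of the same length. Hpgd held the TATA box at position 5 and the GC box on the other strand at position -50, and TATAAA was present in 13.6% of all windows. Positions count from the RefSeq start, and the GENCODE start of Hpgd, 56294585, lies after that TATAAA match. Ptges held the GC box at positions -53 and -42. The Ptgs1 window held none of the 6, so the 2 cyclooxygenase genes had no match in common, while Ptgs2, Ptges and Hpgd each held a GC box. Of the members not printed, Ptges2 held an E-box, Ptges3 and Ptger4 held GC boxes, and Ptger4 and 1 of the Pla2g4a windows held a CCAAT box. The same Pla2g4a window also held the TATA box on the other strand at position -200. No window of the 8 genes held TGACGTCA or TGANTCA, which were present in 1.79% and 7.81% of all windows. All 8 genes had a promoter in the RefSeq table, Pla2g4a with 2 alternative starts. A match is a string of letters and not a measured binding site, and its absence says only that these letters are not in the window.

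The libraries held 22103591 to 30098210 counts on genes. Values are given as CPM, counts scaled to the size of the library, after TMM scaling, which corrects that size for composition. The TMM factors were 0.880 to 0.966 in controls and 1.10 to 1.11 after Folfiri. A gene was called when its adjusted p (edgeR's quasi-likelihood test, Benjamini-Hochberg over 14692 tested genes) was under 0.05. The treatment moved most of the transcriptome: 79.1% of tested genes were called, 40.3% higher and 38.8% lower, and in 81.4% the 3 Folfiri and 3 control values did not overlap. Control replicate 1 differed more from the other controls (chi-square per degree of freedom 23.7 and 22.4) than those 2 did from each other (3.84). Folfiri replicate 3 likewise differed more from the other Folfiri libraries (12.3 and 11.9) than those did from each other (3.55). Values without a library are given where they end a call or move a value by over 1.5 times. Among 8 epithelial markers Epcam, Krt8, Krt18, Krt19 and Cdh1 were abundant in every library, and the summed level of the list was 5731 to 6637 CPM in controls and 4646 to 4816 CPM after Folfiri. Of the 7 tested, Epcam, Krt8, Krt19 and Cdx2 were lower, Cdh1 was higher, and Krt18 and Vil1 were not called. The call of Krt8 was lost with total counts as the only scaling (log2 fold change 0.005, adjusted p = 0.95, edgeR). That of Cdh1 was lost with no filter on low counts (0.18, adjusted p = 0.071, edgeR). Cdx1, the other marker, was below 1 CPM in every library, with 19, 9 and 10 counts in control replicates 1 to 3 and 0, 1 and 0 in Folfiri replicates 1 to 3.

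After Folfiri, transcripts of both cyclooxygenases, of the breakdown enzyme and of the PGE2 receptor were higher by 4.79-fold to 20.0-fold, while the inducible PGE synthase Ptges was 3.99-fold lower. Folds of the 8 genes are those fitted by edgeR and can differ slightly from ratios of mean CPM. All 8 genes were called, 6 higher and 2 lower, against the 79.1% called among all tested genes. All 8 passed the filter on low counts, but Ptger4 did so through its Folfiri libraries alone; of the other 7, 5 were higher and 2 lower. None of the 8 overlapped between groups, against 81.4% of tested genes without overlap. A share that high among all genes means that being called or separated sets these genes apart little, so sizes are the more informative measure. The median log2 fold change was 1.25 over those 7 genes and 1.75 over the 8, beside 0.02 over all tested genes. Of the 7, 3 were called with a log2 fold change of at least 2 (Ptgs2, Ptgs1 and Hpgd), beside 6.30% of tested genes. The shares and median over all tested genes include genes that passed the filter through only the Folfiri or only the control libraries. As the 8 genes were chosen with earlier results of these data known, these sizes describe them and are no evidence about the pathway. Because bulk RNA was measured, a larger share of cells that express a gene and more RNA of it per cell cannot be told apart.

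**Figure D1:**
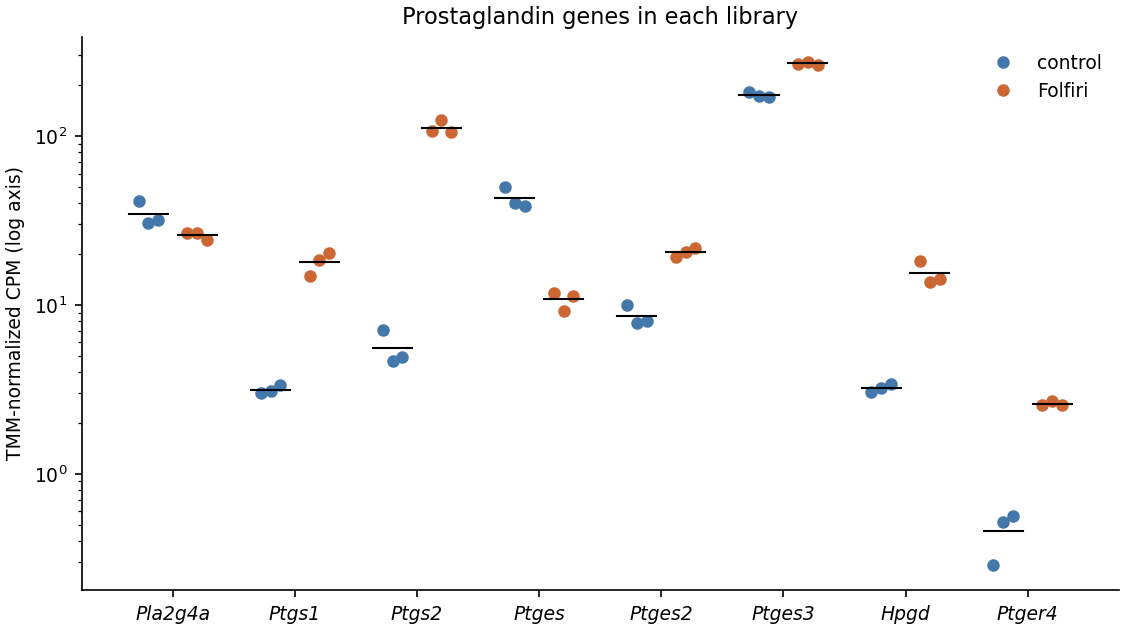
TMM-normalized CPM on a log axis for each of the 8 prostaglandin genes, with a point for each library (blue, control; orange, Folfiri) and a bar at the group mean. Ptgs2 lies at 4.64 to 7.09 CPM in controls and 106 to 124 CPM after Folfiri, and Ptges lies in the opposite order, at 38.6 to 50.2 and 9.26 to 11.8 CPM.

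Release of arachidonic acid was represented by Pla2g4a (chromosome 1, 149829618 to 149961290, minus strand, GRCm38), the calcium-dependent cytosolic phospholipase A2. Its level was 41.5, 30.6 and 31.7 CPM in control replicates 1 to 3 and 26.6, 26.6 and 24.4 CPM in Folfiri replicates 1 to 3. The lowest control lay above the highest Folfiri library, with control replicate 1 well above the other controls. The mean was 34.6 ± 5.97 CPM (SD, n = 3) in controls and 25.9 ± 1.27 CPM (SD, n = 3) in treated organoids. The log2 fold change was -0.42 (SE 0.12, adjusted p = 0.00628, edgeR). This was the smallest change among the 8 genes and the only call among them that depended on scaling. With total counts as the only scaling, the log2 fold change was -0.15 (adjusted p = 0.355, edgeR), on a scale where the median of all tested genes moved from 0.02 to 0.30. Without control replicate 1 it was -0.27.

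The 2 cyclooxygenases convert arachidonic acid to prostaglandin H2. Ptgs2 (chromosome 1, 150100031 to 150108227, plus strand) encodes the inducible cyclooxygenase COX-2. It was at 7.09, 4.64 and 4.94 CPM in control replicates 1 to 3 and at 107, 124 and 106 CPM in Folfiri replicates 1 to 3. Every Folfiri library was many times above every control, and among controls replicate 1 was highest. The mean went from 5.56 ± 1.34 CPM (SD, n = 3) to 112 ± 10.2 CPM (SD, n = 3), and the fitted change was 20.0-fold. The log2 fold change was 4.32 (SE 0.15, adjusted p = 4.50e-09, edgeR). It ranked 150 of 14692 tested genes by the size of its rise, and leaving out 1 library at a time gave 4.19 to 4.56, the largest value without control replicate 1.

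Ptgs1 (chromosome 2, 36230426 to 36252272, plus strand) encodes COX-1, usually described as the constitutive form. It was at 3.03, 3.08 and 3.34 CPM in control replicates 1 to 3 and at 14.9, 18.4 and 20.4 CPM in Folfiri replicates 1 to 3. The controls lay close together and all Folfiri libraries lay above them, with more spread. The mean was 3.15 ± 0.170 CPM (SD, n = 3) in controls and 17.9 ± 2.79 CPM (SD, n = 3) in treated organoids, 5.70-fold higher (log2 fold change 2.51, SE 0.15, adjusted p = 1.12e-07, edgeR). It ranked 568 by rise among the tested genes.

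The 2 cyclooxygenases were compared within each library, where scaling between libraries plays no part. The log2 ratio of Ptgs2 to Ptgs1 counts (pseudocount 0.5) was 1.22, 0.59 and 0.56 in control replicates 1 to 3 and 2.84, 2.75 and 2.38 in Folfiri replicates 1 to 3. All Folfiri ratios were above all control ratios, so Ptgs2 rose by more than Ptgs1. The difference was 1.87 on the log2 scale, with p = 0.1 in a two-sided exact permutation test, the smallest p that 3 against 3 libraries allow. Per kb of exonic length Ptgs2 made up 59.4 ± 6.18% (SD, n = 3) of the summed cyclooxygenase level in controls and 84.2 ± 2.31% (SD, n = 3) after Folfiri.

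Of the 3 genes that encode PGE synthases, Ptges (chromosome 2, 30889471 to 30929863, minus strand) encodes microsomal PGE synthase 1, the form best known for working with COX-2. It was at 50.2, 40.3 and 38.6 CPM in control replicates 1 to 3 and at 11.8, 9.26 and 11.4 CPM in Folfiri replicates 1 to 3. The groups were far apart, in the direction opposite to that of Ptgs2. The mean fell from 43.0 ± 6.28 CPM (SD, n = 3) to 10.8 ± 1.37 CPM (SD, n = 3), 3.99-fold lower (log2 fold change -1.99, SE 0.13, adjusted p = 2.06e-07, edgeR). It ranked 728 by fall among the tested genes.

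Ptges2 (chromosome 2, 32395896 to 32405772, plus strand) encodes microsomal PGE synthase 2, which is expressed widely. It was at 9.94, 7.84 and 8.02 CPM in control replicates 1 to 3 and at 19.4, 20.5 and 21.7 CPM in Folfiri replicates 1 to 3. Its Folfiri values lay close together and above all controls, and the log2 fold change was 1.25 (SE 0.12, adjusted p = 2.83e-06, edgeR). Ptges3 (chromosome 10, 128058954 to 128077272, plus strand) encodes p23, a co-chaperone of HSP90 that also has cytosolic PGE synthase activity. It was at 182, 172 and 171 CPM in control replicates 1 to 3 and at 268, 275 and 265 CPM in Folfiri replicates 1 to 3. Ptges3 thus had the tightest groups of the 8 genes relative to its level and a modest rise, by 0.62 on the log2 scale (SE 0.07, adjusted p = 8.61e-06, edgeR). A processed pseudogene of it, Ptges3-ps, had 0 counts in the table.

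Per kb of exonic length, Ptges made up 11.9 ± 1.11% (SD, n = 3) of the summed level of the 3 PGE synthase genes in controls and 2.15 ± 0.299% (SD, n = 3) after Folfiri. Ptges3 made up most of the rest, at 86.2 ± 1.26% (SD, n = 3) and 94.7 ± 0.386% (SD, n = 3). Ptges2 went from 1.85 ± 0.156% to 3.16 ± 0.207% (SD, n = 3 each). These shares are of transcripts and carry no information on enzyme activity.

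**Figure D2:**
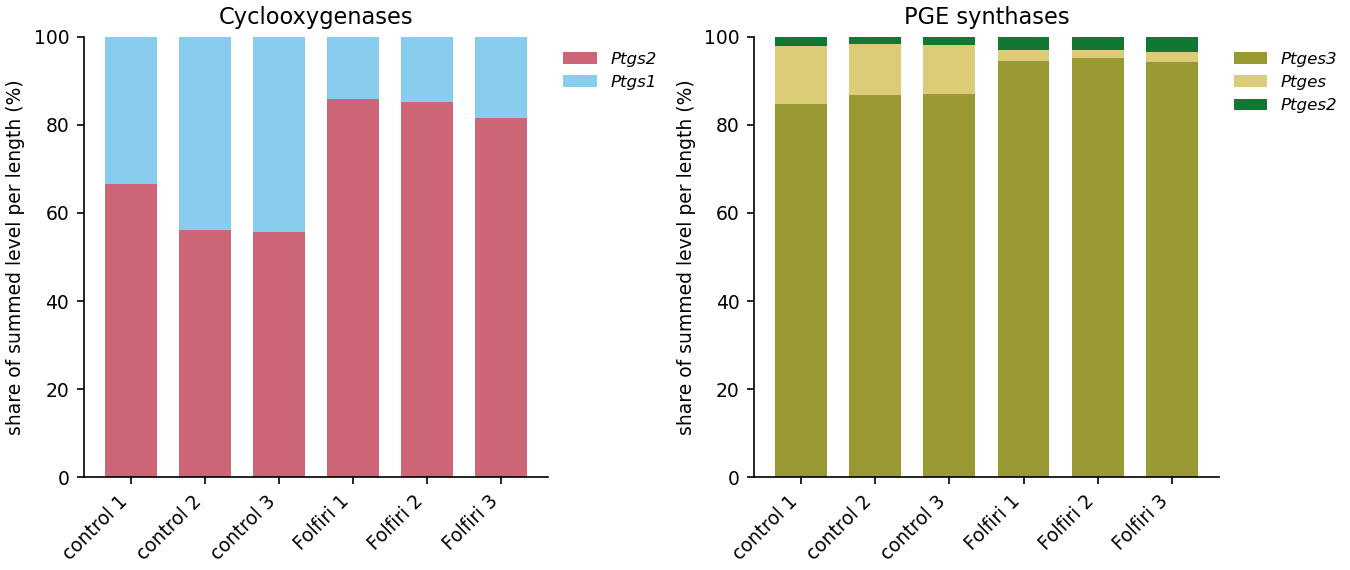
Stacked bars of the share (%) of the summed transcript level per exonic length in each of the 6 libraries, for the 2 cyclooxygenase genes (left) and the 3 PGE synthase genes (right). Ptgs2 takes 55.6 to 66.5% of the cyclooxygenase level in controls and 81.5 to 85.9% after Folfiri, and Ptges takes 11.1 to 13.2% and 1.81 to 2.36% of the PGE synthase level.

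Breakdown was represented by Hpgd (chromosome 8, 56294585 to 56321043, plus strand), whose product oxidizes PGE2 to an inactive 15-keto form. It was at 3.06, 3.20 and 3.39 CPM in control replicates 1 to 3 and at 18.1, 13.7 and 14.3 CPM in Folfiri replicates 1 to 3. All Folfiri libraries lay above all controls, replicate 1 the highest. The mean was 3.22 ± 0.167 CPM (SD, n = 3) in controls and 15.4 ± 2.39 CPM (SD, n = 3) in treated organoids, 4.79-fold higher (log2 fold change 2.26, SE 0.15, adjusted p = 2.08e-07, edgeR), at rank 712 by rise. The breakdown gene and both cyclooxygenase genes thus rose in the same libraries.

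The ratio of Ptgs2 to Hpgd counts within a library was used to compare the inducible cyclooxygenase with breakdown. On the log2 scale (pseudocount 0.5) it was 1.21, 0.53 and 0.54 in control replicates 1 to 3 and 2.56, 3.18 and 2.89 in Folfiri replicates 1 to 3. The groups did not overlap, and the difference was 2.12 on the log2 scale (two-sided exact permutation test, p = 0.1, the smallest it can give). Per exonic length the transcript ratio was 0.852, 0.533 and 0.534 in controls, below 1 in each, and 2.16, 3.32 and 2.73 after Folfiri, above 1 in each. Ptges stood the other way to Hpgd, at a mean of 11.0 against 1.91 CPM per kb in controls and 2.75 against 9.13 CPM per kb after Folfiri, so the comparison depends on which synthesis gene is taken.

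Ptger4 (chromosome 15, 5206661 to 5244187, minus strand) encodes EP4, a PGE2 receptor that raises cAMP. Only 8, 13 and 11 counts lay on it in control replicates 1 to 3, and 76, 83 and 84 counts in Folfiri replicates 1 to 3. In CPM these were 0.288, 0.520 and 0.566 in controls and 2.55, 2.68 and 2.55 after Folfiri. The 3 Folfiri libraries lay close together and far above the controls. The fitted log2 fold change was 2.53 (SE 0.24), with the largest standard error of the 8. As it entered that fit through the group where it was high, its test is given from the fit with no filter on low counts, in which it was also higher (adjusted p = 4.00e-11, edgeR). Of its 6648 exonic bases, Ptger4 shares 1015 with the processed pseudogene Gm15937 and 82 with Ttc33, both on the opposite strand. The library kit does not mark strand. For Gm15937 0 counts were recorded, and Ttc33 was at 17.5 CPM in controls and 17.9 CPM after Folfiri (log2 fold change 0.03, adjusted p = 0.750, edgeR).

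**Figure D3:**
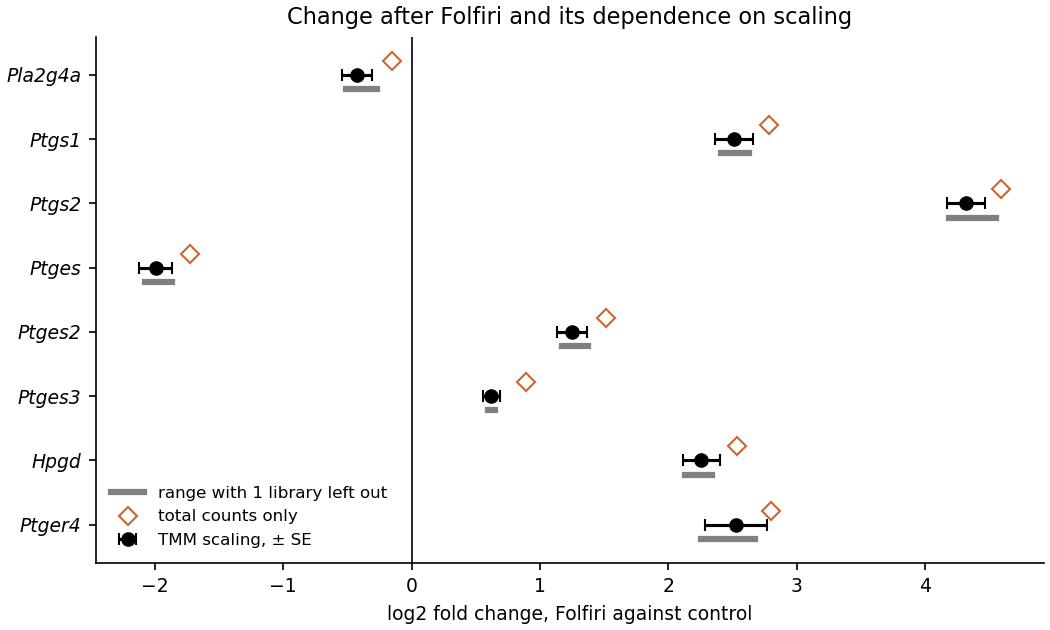
Log2 fold change of Folfiri against control for the 8 genes, ± SE (black points), with total counts as the only scaling (open diamonds) and as a range over the fits that leave out 1 library (grey bars). Every gene keeps its direction, and only Pla2g4a comes near 0, at -0.15 with total counts.

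Levels of different genes were compared as CPM per kb of exonic length (union of annotated exons). In controls Ptges3 led at 78.9 CPM per kb, followed by Ptges at 11.0, Pla2g4a at 5.41, Hpgd at 1.91, Ptges2 at 1.70, Ptgs2 at 1.21, Ptgs1 at 0.811 and Ptger4 at 0.0689. Only Hpgd and Ptges2 overlapped as neighbours in that order. After Folfiri the order was Ptges3 at 121 CPM per kb, Ptgs2 at 24.5, Hpgd at 9.13, Ptgs1 at 4.61, Ptges2 at 4.06, Pla2g4a at 4.05, Ptges at 2.75 and Ptger4 at 0.390. Ptgs1 overlapped with Ptges2, and Ptges2 with Pla2g4a. Ptgs2 thus moved from the sixth to the second place and Ptges from the second to the seventh.

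**Figure D4:**
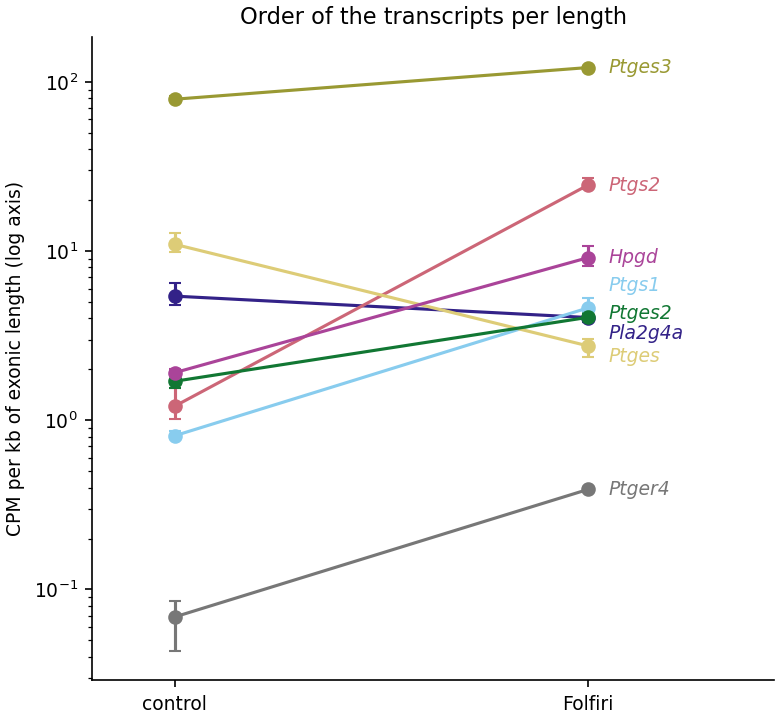
Mean CPM per kb of exonic length (log axis) in controls and after Folfiri for the 8 genes, with bars from the lowest to the highest of 3 libraries. Ptgs2 climbs from 1.21 to 24.5 CPM per kb and crosses Ptges, which drops from 11.0 to 2.75.

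Pla2g4a and Ptgs2 are adjacent protein-coding genes on chromosome 1, with 138740 bases between them, and they changed in opposite directions. Pdc, the next protein-coding gene beyond Ptgs2 at a distance of 211189 bases, had 0 counts in every control and 10, 15 and 5 counts in Folfiri replicates 1 to 3. Brinp3, beyond Pla2g4a, had 1 count in all libraries together. A noncoding gene chosen by position after its values were seen, Ptgs2os, ends 67 bases before Ptgs2 on the opposite strand. It had 3, 3 and 2 counts in control replicates 1 to 3 and 11, 10 and 19 in Folfiri replicates 1 to 3, a mean of 0.110 and 0.423 CPM, far below Ptgs2. No test is given for it, since it passed the filter on low counts through its Folfiri libraries alone.

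The genes whose pattern over the 6 libraries was most like that of Ptgs2, out of 9469 with a mean of at least 10 CPM, were Cxcl1, Ppbp and Ica1l. Their root mean square difference from Ptgs2 in centred log2 CPM was 0.144, 0.188 and 0.190. Cxcl1 and Ppbp encode CXC chemokines, and Cxcl1 went from 3.40 ± 0.622 CPM to 68.6 ± 6.96 CPM (SD, n = 3 each). For Hpgd they were Plk2, a polo-like kinase, Ampd2, an AMP deaminase, and Plat, the tissue plasminogen activator, at 0.146, 0.150 and 0.151. With only 2 groups of 3 libraries, likeness mostly reflects a similar size of change.

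The rest of arachidonate metabolism was followed in 7 lists of 57 genes, of which 38 were tested, 12 were called higher and 19 lower. The share called, 81.6%, was close to the 79.1% among all tested genes, so the lists are described by their members. The median log2 fold change was -0.30 beside 0.02 over all tested genes, and with total counts as the only scaling the split was 15 higher and 15 lower. Over the 34 genes that passed the filter in both groups, 10 were higher and 19 lower. Among the other phospholipases A2, 11 of 14 were tested, 4 were higher and 5 lower (81.8% called, beside 79.1% of all tested genes). Pla2g4c, a calcium-independent relative of Pla2g4a, was at 0.396, 0.400 and 0.154 CPM in control replicates 1 to 3 and at 9.05, 8.33 and 9.71 CPM in Folfiri replicates 1 to 3 (fitted log2 fold change 4.75, SE 0.23). It was thus near absent in controls and passed the filter through its Folfiri libraries alone. In the fit with no filter the log2 fold change was 4.72 (adjusted p = 3.74e-21, edgeR). Pla2g15, a lysosomal phospholipase, rose with a log2 fold change of 0.70, Plaat3 with 0.61 and Pla2g4b with 0.83. The last call was lost without Folfiri replicate 3 (0.71, adjusted p = 0.0619, edgeR), and the log2 fold change was 0.56 without control replicate 1. Pla2g4b shares 3878 of its 5831 exonic bases with Gm28042 on the same strand and 792 with Sptbn5 on the opposite strand. Among genes for secreted phospholipases, Pla2g2f, Pla2g10 and Pla2g2a were lower, with log2 fold changes of -2.88, -2.40 and -1.97, and Pla2g12a, outside the rule for named genes, was lower at -0.72, while Pla2g5 and Pla2g12b had too few counts to be tested. Pla2g2a is annotated as a polymorphic pseudogene in the reference strain. The calcium-independent Pla2g6 had a log2 fold change of -0.94.

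Enzymes that activate free fatty acids such as arachidonate to CoA esters, or transfer them to lysophospholipids, made up a list of 6. They differ in the fatty acid they prefer, and Mboat1 and Mboat2 are known for oleate more than for arachidonate. All 6 were tested, 5 were called lower and 1 higher, where 38.8% of all tested genes were lower and 40.3% higher. With total counts as the only scaling 3 were lower and 1 higher. Mboat2 went from 82.8 ± 1.63 to 17.8 ± 1.41 CPM (SD, n = 3 each; log2 fold change -2.22) and Acsl4, the acyl-CoA synthetase with a preference for arachidonate, from 186 ± 5.38 to 65.0 ± 5.91 CPM (SD, n = 3 each; -1.52). Acsl3 had a log2 fold change of -1.27 and Mboat7, which prefers arachidonate for phosphatidylinositol, of -0.47. The call of Mboat7 was lost with total counts as the only scaling (-0.19, adjusted p = 0.0598, edgeR), as was that of Lpcat3, also outside that rule, which was -0.33 with TMM scaling and -0.06 with total counts (adjusted p = 0.637, edgeR). The 1 higher gene, Mboat1, changed by 0.17 on the log2 scale and lost its call in 6 of 13 alternatives, among them those without control replicate 2 (0.15) or 3 (0.16) and without Folfiri replicate 1 (0.18) or 2 (0.16).

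The other prostanoid synthases divide prostaglandin H2 among further products. Of 9, 5 were tested, 3 were higher and 1 was lower (80.0% called, beside 79.1% of all tested genes). Akr1c18 and Akr1b3, aldo-keto reductases that can form F-series prostaglandins, rose with log2 fold changes of 1.17 and 0.74. Prxl2b, which encodes another enzyme that can form F-series products, was lower at -1.25 (adjusted p = 0.00148, edgeR) and was outside the rule for named genes because of its low mean. Hpgds, the hematopoietic prostaglandin D synthase, was outside it for the same reason and was chosen after its values were seen. It passed the filter through its Folfiri libraries alone. It had 0, 1 and 1 counts in control replicates 1 to 3 and 58, 55 and 45 counts in Folfiri replicates 1 to 3. The ratio was 60.9, with an exact 95% interval of 16.6 to 507 that covers counting error only, and 37.5 (10.2 to 312) without control replicate 1. Of the other prostanoid receptors, 1 of 8 was tested and was not called, and 5 had at most 3 counts in all libraries together. The thromboxane receptor gene Tbxa2r, also chosen after its values were seen, had 0 counts in controls and 13 in the Folfiri group.

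Of 6 genes for transport and later breakdown, 5 were tested, 1 was higher and 2 were lower (60.0% called, beside 79.1% of all tested genes), and with total counts as the only scaling 3 were higher and 1 was lower. Slco2a1, the prostaglandin uptake carrier that supplies Hpgd with its substrate, was at 35.4, 25.1 and 24.7 CPM in control replicates 1 to 3 and at 55.4, 57.8 and 54.3 CPM in Folfiri replicates 1 to 3 (log2 fold change 0.97, SE 0.13, adjusted p = 3.96e-05, edgeR). The groups did not overlap, and the carrier rose together with Hpgd. The prostaglandin reductases Ptgr1 and Ptgr3 were lower, with log2 fold changes of -0.63 and -0.64, and the call of Ptgr3 was lost with total counts as the only scaling (-0.37, adjusted p = 0.0580, edgeR). Ptgr2, a reductase outside the rule for named genes, was not called (0.20, adjusted p = 0.066, edgeR). With total counts as the only scaling Ptgr2 was higher (0.47, adjusted p = 0.0019, edgeR). Abcc4, an exporter of PGE2 that was outside the rule for named genes, was at 31.1, 15.9 and 19.2 CPM in control replicates 1 to 3 and at 27.3, 32.1 and 28.1 CPM in Folfiri replicates 1 to 3. Its groups overlapped through control replicate 1 alone, and the log2 fold change was 0.40 (adjusted p = 0.0904, edgeR). It was 0.74 without control replicate 1 (adjusted p = 1.70e-05, edgeR) and 0.19 without control replicate 2 (adjusted p = 0.321, edgeR). It also passed the threshold with total counts as the only scaling (0.66, adjusted p = 0.0300, edgeR) and with no filter on low counts (0.37, adjusted p = 0.0215, edgeR).

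In the lipoxygenase and leukotriene branch, which competes for arachidonic acid, 6 of 10 genes were tested, 2 were higher and 3 lower (83.3% called, beside 79.1% of all tested genes). Aloxe3 and Alox12e rose with log2 fold changes of 1.43 and 0.89, both from under 1 CPM. Alox15 and Alox12 were lower, with log2 fold changes of -2.02 and -1.22. Lta4h, the leukotriene A4 hydrolase and the most abundant of those named, went from 97.2 ± 7.13 to 40.8 ± 1.80 CPM (SD, n = 3 each; -1.25). Of 4 genes for RNA-binding proteins known to bind the Ptgs2 transcript, Elavl1, which encodes the stabilizing protein HuR, rose with a log2 fold change of 0.49. Celf2 and Tia1, whose products are known to restrain translation of the Ptgs2 transcript, were lower at -0.93 and -0.69. Zfp36, which encodes the destabilizing protein tristetraprolin, had a log2 fold change of -0.34 with overlapping groups, and its call was lost in 7 of 13 alternatives. It was -0.05 with total counts as the only scaling and -0.24 to -0.37 without any 1 of control replicates 2 and 3 and Folfiri replicates 1 to 3, none of which kept the call.

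**Figure D5:**
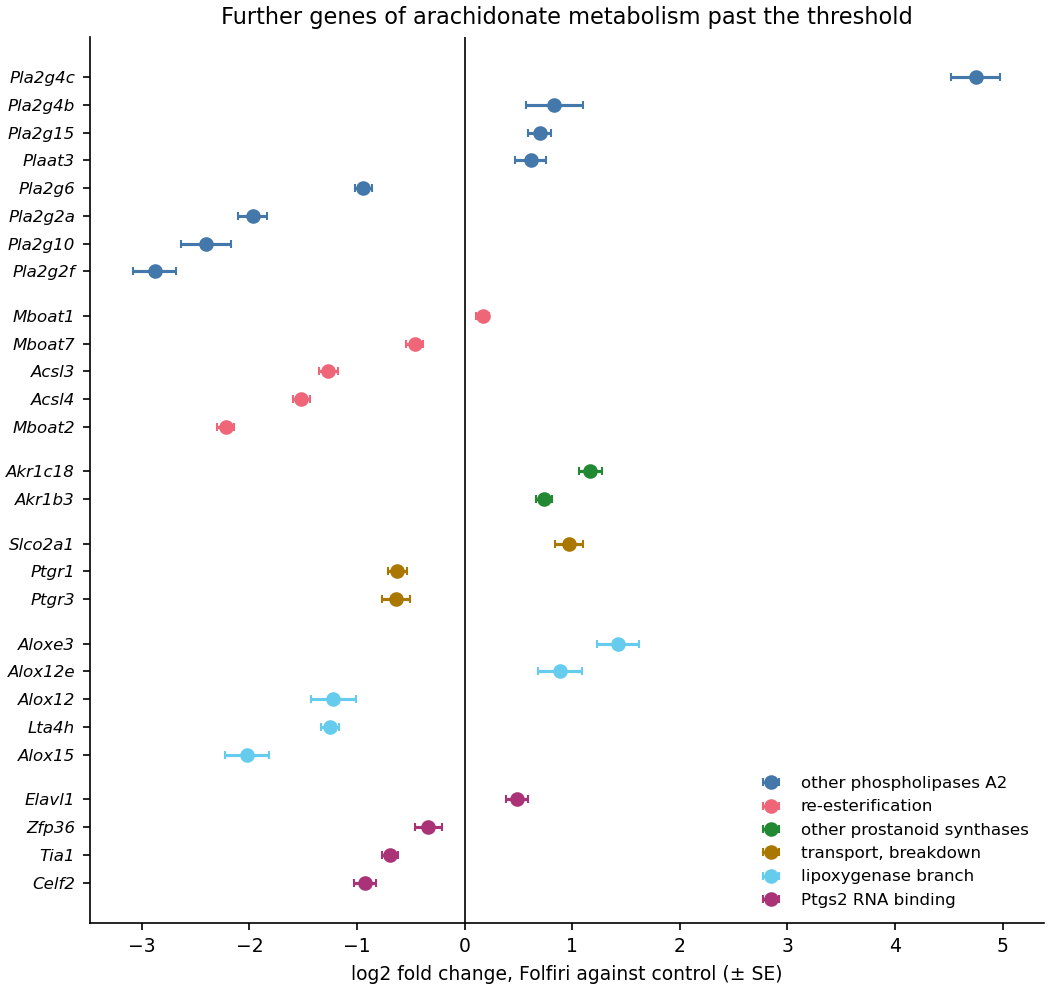
Log2 fold change ± SE of the further genes of arachidonate metabolism named by the rule, colored by list, Folfiri against control. Pla2g4c stands at 4.75 and the secreted phospholipases Pla2g2f, Pla2g10 and Pla2g2a between -2.88 and -1.97, while 4 of the 5 re-esterification genes shown lie below 0.

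Several of these genes are also known from particular cell types, Ptgs1 and Hpgds from tuft cells, a rare epithelial lineage, and Ptgs2 from fibroblasts and macrophages, so marker lists for those cells were read in the same libraries. Of 10 tuft cell markers, 8 stayed below 1 CPM in every library, among them Trpm5, Pou2f3, Gfi1b and Dclk1. Dclk1 had 0 counts in all controls and 4, 4 and 5 counts in Folfiri replicates 1 to 3, and Gfi1b had 8, 4 and 7 counts in control replicates 1 to 3 and 2, 1 and 2 counts in Folfiri replicates 1 to 3. The summed level of the tuft list was 179 to 185 CPM in controls and 139 to 152 CPM after Folfiri, almost wholly Avil and Ptpn6. Pou2f3 had a mean of 0.217 CPM in controls and 0.470 CPM after Folfiri, Gnat3 of 0.287 and 0.223 CPM, and Sh2d6 of 0.174 and 0.136 CPM. The summed fibroblast list was 1.08 to 1.49 CPM and 2.12 to 2.65 CPM, with Pdgfra at a mean of 0.397 and 1.15 CPM, Dcn at 0.0240 and 0.694 CPM and Col1a1 at 0.842 and 0.301 CPM, and Col3a1 and Pdgfrb at 0 counts in controls. The summed immune list was 21.3 to 26.0 CPM and 21.6 to 22.5 CPM, almost wholly Cd68, and Ptprc was at a mean of 0.396 and 1.06 CPM. No test is given for Pou2f3, Pdgfra, Dcn, Col1a1 and Ptprc, which passed the filter on low counts only through the group where they were higher. The part of such cells in the changes of the prostaglandin genes was not tested.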

How the data were processed

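Poly(A) RNA libraries from 3 control and 3 Folfiri samples were analysed, grouped by the treatment label. The authors aligned reads with STAR (version 2.5.2) to GRCm38 with a later GENCODE mouse annotation than the one used here and counted them per gene with Rsubread; the deposited table holds raw counts for each library. The handling of strand and of multi-mapping reads in counting is not given in the sources used here, and the library kit does not mark strand, so reads from overlapping genes on opposite strands cannot be told apart. Counts of low genes are limited by depth, 22103591 to 30098210 counts per library.

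Ensembl identifiers were matched to GENCODE vM21 (same build), which gave 24124 of 24190 genes a symbol. Genes were filtered with filterByExpr and tested with edgeR (version 4.0.16, R version 4.3.3) by the quasi-likelihood test with TMM scaling, no covariate, and Benjamini-Hochberg adjustment at 0.05; the code was tested on simulated data. DESeq2 (version 1.42.0), other scalings, other filters, a replicate block and leaving out each library were alternatives. Ratios were tested by a two-sided exact permutation test (scipy version 1.17.1). The 8 genes and the lists were chosen with earlier results of these data known. Named were the 8 genes, per list and direction up to 4 called genes of the largest log2 fold change with a mean of at least 1 CPM, the 3 genes most like Ptgs2 and Hpgd, and the protein-coding neighbours of Ptgs2 and Pla2g4a. Any other gene named was chosen after its values were seen. Intervals cover counting error only.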

Additional observations from a re-analysis of the deposited data

How the results depend on the processing

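The 8 prostaglandin genes kept their direction in all 13 alternatives. With total counts as the only scaling, 1 gene in place of 2 was called lower: Pla2g4a had a log2 fold change of -0.15 (adjusted p = 0.355, edgeR). That scaling moved the median of all tested genes from 0.02 to 0.30 and the share of higher genes among those called from 51.0% to 63.3%; without a filter on low counts the median was 0.28, with 24190 genes tested. The number of all genes called was 10630 to 12742 over the alternatives, with 11278 by DESeq2. A replicate block in the edgeR fit gave 11499 calls in place of 11623 and kept all 8 calls, with a log2 fold change of 4.34 for Ptgs2; among the further pathway genes named, the block ended the call of Mboat1 (adjusted p = 0.0818, edgeR) and brought Abcc4 past the threshold (0.45, adjusted p = 0.0191, edgeR). Deviations of same-numbered samples correlated at 0.03, -0.12 and 0.04, and not every sample correlated best with its own number, so the numbers were not taken as pairs. In the order of levels per length, 1 neighbouring pair of genes overlapped in controls and 2 after Folfiri. With TPM there were 2 in controls; leaving out 1 library at a time gave 0 to 1 in controls, the 0 without control replicate 1, and 1 to 2 after Folfiri, the 1 without replicate 1 or 3. Depth limits Ptger4 in controls and the genes with few counts, and a permutation test of 3 against 3 libraries cannot go below 0.1.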
